A study of Mus musculus with 10 samples.

Results

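The genes described here are 53 listed genes of the neuroendocrine secretory granule and of neuronal differentiation, chosen by name for their known roles, with no measured value in the rule. Of these, 43 had a row among the 26335 rows of the deposited table. The other 10 (Chga, Pcsk2, Pcsk1n, Syt4, Resp18, Calca, Th, Nefl, Nefm and Dcx) were not analysed here. RNA sequencing was performed on mSCLC-2405, a mouse line derived from a primary small cell lung cancer, cultured for 48 h with the vehicle DMSO (5 control libraries) or with 250 μM stiripentol (5 libraries), an antiseizure drug studied there as an inhibitor of respiratory complex I. The tumor had been started in the mouse by Cre from an adenovirus given through the trachea, and both groups share this origin. The line was made from dissociated tumor without a stated sort, it stands for 1 line and not for a series of tumors, and nothing in the sample records says that libraries of a group came from separate cultures. The p-values below therefore measure the spread between these libraries. The comparison asks how these genes stood in the line and how their RNA differed after stiripentol.

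Neuroendocrine cells keep peptide hormones and amines in dense-core granules. Granins condense the cargo in the lumen of the granule, prohormone convertases and carboxypeptidases cut and trim the peptides, and SNARE proteins with synaptotagmins fuse the granule with the plasma membrane when calcium rises. Classical small cell lung cancer carries this program under transcription factors such as INSM1 and NEUROD1, and pathologists use chromogranin, synaptophysin and NCAM1 to recognize it, whereas the repressor REST keeps many of the same genes silent in other cells.

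Control libraries held 22375625 to 65299372 recovered reads (median 63607057) and stiripentol libraries 55015760 to 60670901 (median 57977596). Levels are given in log2 CPM (log2 of the reads relative to library depth, with a small prior), and a gene with 0 reads was listed at -4.82 in controls 1 to 3 and at -4.74 in the other libraries. Since 0 reads in a library can hide up to 3 reads, it allows up to 0.0459 to 0.134 CPM. Libraries clustered within each group, as controls 1 to 3 against controls 4 and 5 and as stiripentol 1 and 2 against stiripentol 3 to 5. Across genes, libraries correlated at 0.983 to 0.997 within a cluster and at 0.920 to 0.939 between the clusters of a group. Controls 4 and 5 correlated at 0.881 to 0.904 with stiripentol 1 and 2 and at 0.932 to 0.938 with stiripentol 3 to 5. For controls 1 to 3 these values were 0.84 to 0.875 and 0.92 to 0.936. What separates the clusters is not given in the sources used here, so changes are also given for 2 pairs of clusters that share no library: controls 4 and 5 with stiripentol 1 and 2, and controls 1 to 3 with stiripentol 3 to 5, pairs formed by the replicate numbers in the study's own list of values. The control numbers there differ from those of the sample records, which are used here: controls 4, 5, 1, 2 and 3 of the records, identified by their values, are 1 to 5 in that list. Control 5 was the shallowest library.

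Of the lineage factors of neuroendocrine cells, Insm1 had at most 10 reads in any library, while Nkx2-1 had 2 to 38 reads. Neurod1 was not analysed here. Foxa2 and Prox1, which other epithelia also use, had 91 to 814 and 26 to 146 reads. REST, the repressor of neuronal genes, was read in every library, at 76.2 to 99.1 CPM in control and 40.8 to 71.4 CPM in stiripentol. Keratins 8 and 18 were read at 1050 to 1270 and 1160 to 1490 CPM in control, and vimentin at 2090 to 3370 CPM. Of the other epithelial markers, Epcam had at most 1 read and Cdh1 had 11 to 63. The mesenchymal marker Thy1 had at most 1 read. Of the 5 leukocyte markers with a row, 3 had at most 5 reads in every library, among them the pan-leukocyte marker Ptprc with at most 3. The others were Lyz2, with 16 to 216 reads, and Cd68, with 242 to 6240. Of the diagnostic markers named above, Ncam1 was read in every library, synaptophysin (Syp) had at most 20 reads and chromogranin A (Chga) was not analysed here.

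Of the 43 genes with a row, 15 had a mean log2 CPM above 0 over the 10 libraries and were tested. The other 28 lay below this filter. Of these 28, 15 had at most 5 reads in every library, 6 had between 6 and 25 in their highest library, and 7 had more than 25. The whole table compares with the 43 genes and not with the 28. At most 5 reads in every library were found for 15 of the 43 genes and for 7090 of all 26335 rows. The genes that passed came from all but 3 of the roles, and the roles with none were the granins, the calcitonin family peptides and the neuronal RNA-binding proteins.

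**Figure D1:**
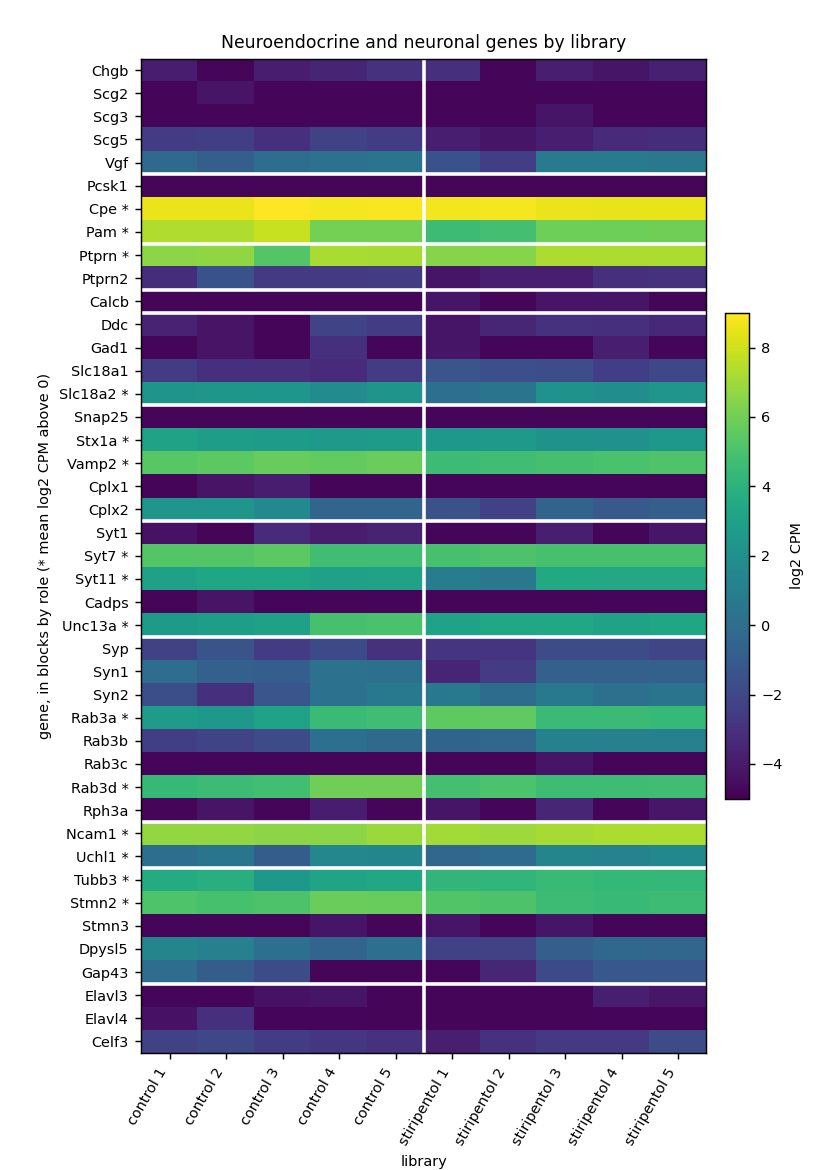
Level of the 43 genes with a row (vertical axis, in blocks by role, asterisk for the 15 tested) in each of the 10 libraries (horizontal axis), colored by log2 CPM from -5 to 9. Cpe lies between 8.53 and 9.00 in every library, whereas Snap25 and Pcsk1, with 0 reads, stay at the dark end of the scale throughout.

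With stiripentol, limma called 2 of the 15 tested genes lower and 3 higher at an adjusted p under 0.05. The vesicle SNARE Vamp2 and the amidating enzyme Pam fell, and the adhesion molecule Ncam1, the neuronal tubulin Tubb3 and the vesicle GTPase Rab3a rose. Over all 12306 genes tested, 14.1% were called lower and 13.6% higher, so that the 2 and the 3 of 15 stand near the background. The median log2 change was -0.35 over the 15 genes and -0.06 over all genes tested, and 10 of the 15 changes were below 0, against 53.6% of all genes. Of the 10 genes not called, Stx1a and Stmn2 had an unadjusted p under 0.05.

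In 2 of the 15 genes, Vamp2 and Pam, every stiripentol library lay below every control library, as in 14.3% of all genes tested, and in 2, Ncam1 and Tubb3, every stiripentol library lay above, as in 13.0%. Each pair of clusters was also fitted alone. Vamp2, Pam and Stmn2 were called lower in both pairs, 3 of 15 against 18.8% of all genes, and Ncam1, Tubb3 and Rab3a were called higher in both, 3 of 15 against 15.3%. In 6 of 15 genes (Ptprn, Syt7, Syt11, Unc13a, Rab3d and Uchl1) the change had opposite signs in the pairs, against 37.0% of all genes tested. The difference between pairs was not tested, because the clusters were found in these data. In bulk RNA, fewer cells expressing a gene and less RNA of it per cell cannot be told apart.

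**Figure D2:**
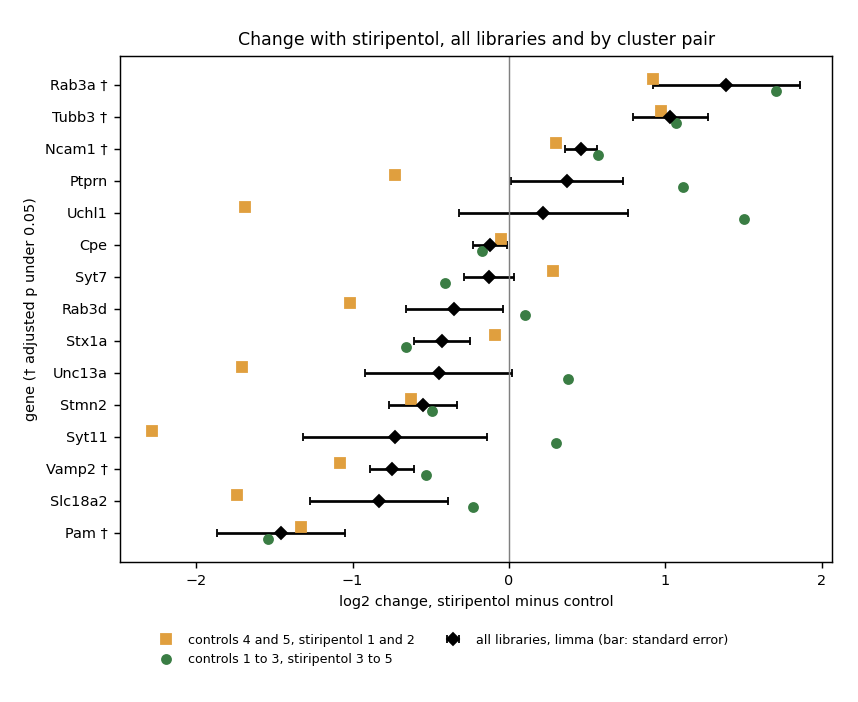
Log2 change, stiripentol minus control (horizontal axis), of the 15 tested genes (vertical axis): black diamonds are the limma estimate over all libraries with its standard error, orange squares and green circles are the differences of means in each pair of clusters. Vamp2 lies at -0.75, with -1.08 and -0.53 in the pairs, whereas the squares and circles of Syt11 (-2.28 and 0.30) and Uchl1 (-1.69 and 1.50) fall on opposite sides of 0.

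The granins, which condense the cargo of the granule, were close to the limit of reading. Chgb had at most 5 reads in any library. Scg2 had 1 read in 1 library and Scg3 had 1 read in 1 library. Scg5, which encodes the chaperone of prohormone convertase 2, had 9, 9, 5, 11 and 3 reads in controls 1 to 5 and 2, 1, 2, 4 and 4 reads in stiripentol 1 to 5. In CPM, every stiripentol library (0.0173 to 0.0727) lay below every control library (0.0785 to 0.173). Vgf, a granin-like precursor of secreted peptides, had 53, 32, 65, 71 and 30 reads in the controls and 20, 9, 91, 95 and 81 with stiripentol. Its 2 lowest libraries were stiripentol 1 and 2 and its 3 highest in CPM were stiripentol 3 to 5, so the groups overlapped, at 0.968 ± 0.301 CPM in control and 1.02 ± 0.717 CPM with stiripentol (SD, n = 5).

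The RefSeq promoter table (GRCm38.p6) holds windows from 250 bases before to 50 after annotated transcript starts, some of them inside the gene, and held 33 of the 43 genes, 24 with 1 window and 9 with several. A gene was counted where any of its windows matched. The cyclic AMP response element TGACGTCA, searched on both strands, was in 6 of the 33 (Chgb, Scg2, Pcsk1, Slc18a2, Syn1 and Celf3) and in 2.03% of the 27025 genes of the table. The match of Celf3 lay only in windows at transcript starts inside the gene, and the window of Pcsk1 is at a start inside the annotated span. Shown first, because they are the granin, convertase and synapsin genes that hold it, are the stretches before the transcript start of Chgb, Scg2 and Pcsk1 and an upstream stretch of Syn1. Capitals mark the element and, in Syn1, also TTCAGCACC, the left part of RE1, the sequence REST binds.
Chgb: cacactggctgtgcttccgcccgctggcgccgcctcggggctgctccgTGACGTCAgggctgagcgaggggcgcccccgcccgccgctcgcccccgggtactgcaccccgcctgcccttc
Scg2: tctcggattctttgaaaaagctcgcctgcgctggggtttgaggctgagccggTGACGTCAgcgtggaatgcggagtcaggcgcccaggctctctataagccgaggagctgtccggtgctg
Pcsk1: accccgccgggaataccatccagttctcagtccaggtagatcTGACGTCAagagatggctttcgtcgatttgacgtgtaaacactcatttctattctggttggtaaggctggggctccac
Syn1: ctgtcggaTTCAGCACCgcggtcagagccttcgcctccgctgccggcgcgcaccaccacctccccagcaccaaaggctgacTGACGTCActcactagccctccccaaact
The stretches lie at chr2:132781522-132781641 on the plus strand for Chgb, chr1:79440027-79440146 on the minus strand for Scg2, chr13:75089737-75089856 on the plus strand for Pcsk1 and chrX:20921049-20921158 on the minus strand for Syn1. The first 3 run from 120 bases before the transcript start to the base before it, and that of Syn1 from 240 to 131 bases before it.

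TTCAGCACC was found on either strand in 4 of the 33 promoters (Scg2, Ptprn2, Unc13a and Syn1) and in 0.433% of all genes. GGACAG, the right part of RE1, was in 11 of the 33 and in 24.7% of all genes. Both parts lay at most 10 bases apart in Scg2, Ptprn2 and Unc13a, and in 13 genes (0.0481%) of the table, a count chosen after the single matches had been seen. The 28 bases around these matches are printed because the transcript start lies within or just before them. Both parts are on the opposite strand there, so the capitals read as their reverse complements.
Scg2: agCTGTCCGGTGCTGAAacggcccgagc
Ptprn2: cgCTGTCCGGTGCTGAAgctcggccggc
Unc13a: cgCTGTCCgcgcccccGGTGCTGAAgcg
These lie at chr1:79440014-79440041 on the minus strand for Scg2, chr12:116485725-116485752 on the plus strand for Ptprn2 and chr8:71671724-71671751 on the minus strand for Unc13a. Of these 3 genes, Scg2 and Ptprn2 had at most 1 and 19 reads in any library, while Unc13a had up to 1894. The shorter CGTCA, which also lies within the full element, was in 16 of 33 promoters against 23.0% of all genes. A match describes the letters of the window and is not a measured binding site.

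Of the enzymes that process prohormones, Pcsk1, the convertase of the regulated pathway, had 0 reads in every library. Cpe, the carboxypeptidase that removes basic residues after cleavage, was read throughout, at 8.77 ± 0.18 log2 CPM in control and 8.65 ± 0.12 with stiripentol (SD, n = 5). Its values ran from 8.59 to 9.00 in control and from 8.53 to 8.79 with stiripentol, so the groups overlapped. The log2 change was -0.12 (SE 0.11, adjusted p = 0.422).

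Pam, at chr1:97821091-98095853, encodes the enzyme that amidates the C terminus of peptide hormones. It was at 7.32, 7.32, 7.80, 6.06 and 6.05 log2 CPM in controls 1 to 5 and at 4.61, 4.84, 5.90, 5.92 and 5.99 in stiripentol 1 to 5. Every stiripentol library was below every control library, but controls 4 and 5 and stiripentol 3 to 5 lay next to each other. Pam fell by 1.46 on the log2 scale (SE 0.41, adjusted p = 0.0246), a ratio of 0.36. The changes were -1.33 and -1.54 in the pairs of clusters, but -0.12 between controls 4 and 5 and stiripentol 3 to 5. The call was kept in 5 of the 10 fits that left out 1 library, and it was lost without control 1, 2 or 3 or stiripentol 1 or 2, where the adjusted p was 0.0536 to 0.0604. The span of Pam overlaps annotated long noncoding RNAs and a pseudogene, and whether the counting used strand is not given in the sources used here.

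Ptprn, a transmembrane phosphatase-like protein of the dense-core granule, was at 6.57, 6.70, 5.28, 7.22 and 7.16 log2 CPM in the controls and at 6.45, 6.46, 7.29, 7.29 and 7.28 with stiripentol. Control 3 was the lowest library and the groups overlapped. The change was 0.37 (SE 0.36, adjusted p = 0.448), made up of -0.73 in the pair with controls 4 and 5 and 1.11 in the other pair. Its paralog Ptprn2 had at most 19 reads in any library. Calcb, a calcitonin gene-related peptide, had at most 1.

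Of the 4 genes of amine and GABA handling with a row, 1 passed the filter, Slc18a2. Ddc, the decarboxylase that makes dopamine and serotonin, had at most 12 reads in any library, and Gad1, which makes GABA, had at most 5. Slc18a2, the vesicular monoamine transporter of neurons, was at 2.23, 2.41, 2.35, 1.75 and 2.24 log2 CPM in the controls and at 0.13, 0.39, 2.14, 1.87 and 2.30 with stiripentol. Stiripentol 1 and 2 stood below all others, and the other 3 stiripentol libraries lay within the control range. The log2 change of -0.83 (SE 0.44) had an adjusted p of 0.172, and of 0.0345 with a term for the cluster pair. The fit with that term called 3336 of all genes lower, against 1740 without it. The change was -0.75 under median centring (adjusted p = 0.137) and -0.50 under quantile normalization (adjusted p = 0.198). Slc18a1, the vesicular transporter of endocrine cells, had 9, 5, 5, 4 and 3 reads in the controls and 22, 17, 16, 9 and 12 with stiripentol. In CPM every stiripentol library (0.150 to 0.363) lay above every control library (0.0629 to 0.138). The span of Slc18a1 overlaps that of Atp6v1b2, whose mean was also higher with stiripentol in the study's own list of values. The part of this overlap in the reads of Slc18a1 was not tested.

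The SNARE proteins pull vesicle and plasma membrane together. Vamp2, at chr11:69088528-69092381, encodes the vesicle SNARE synaptobrevin. It was at 5.34, 5.49, 5.72, 5.65 and 5.81 log2 CPM in controls 1 to 5 and at 4.61, 4.69, 4.86, 4.98 and 5.14 in stiripentol 1 to 5. The groups did not overlap, with means of 5.60 ± 0.19 and 4.86 ± 0.21 (SD, n = 5). Vamp2 fell by 0.75 on the log2 scale (SE 0.14, adjusted p = 0.00392), a ratio of 0.60. In the pairs of clusters the changes were -1.08 and -0.53. It was called in each of 25 alternative fits, with adjusted p from 1.1e-05 to 0.0133. The lowest came from controls 4 and 5 against stiripentol 1 and 2 alone. Not counted there were the unfiltered fits, which kept the call, and that with 1 mean per cluster. In the latter, which has 4 values and called no gene, the change of Vamp2 was -0.80 and its adjusted p 0.568.

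Of the partners of Vamp2 at the plasma membrane, Snap25 had 0 reads in every library. Stx1a, which encodes syntaxin 1A, was at 3.05, 2.86, 2.76, 2.51 and 2.66 log2 CPM in the controls and at 2.45, 2.55, 2.11, 2.10 and 2.48 with stiripentol. Only stiripentol 2 exceeded the lowest control, control 4. The change of -0.43 (SE 0.18) was not called, with an adjusted p of 0.0949. It was called with a term for the cluster pair in the fit (adjusted p = 0.0431). That fit called 3336 of all genes lower, against 1740 without the term. The change was -0.35 under median centring (adjusted p = 0.224) and -0.16 under quantile normalization (adjusted p = 0.679). Of the complexins, which clamp the assembled SNAREs, Cplx1 had at most 2 reads. Cplx2 had 318, 286, 195, 44 and 16 reads in the controls and 19, 10, 38, 26 and 30 with stiripentol. Controls 1 to 3 stood apart at 3.06 to 4.93 CPM, whereas controls 4 and 5 were at 0.692 and 0.715 CPM and stiripentol libraries at 0.172 to 0.657 CPM. The groups did not overlap in CPM, by a small margin at controls 4 and 5. The span of Cplx2 overlaps annotated long noncoding RNAs.

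**Figure D3:**
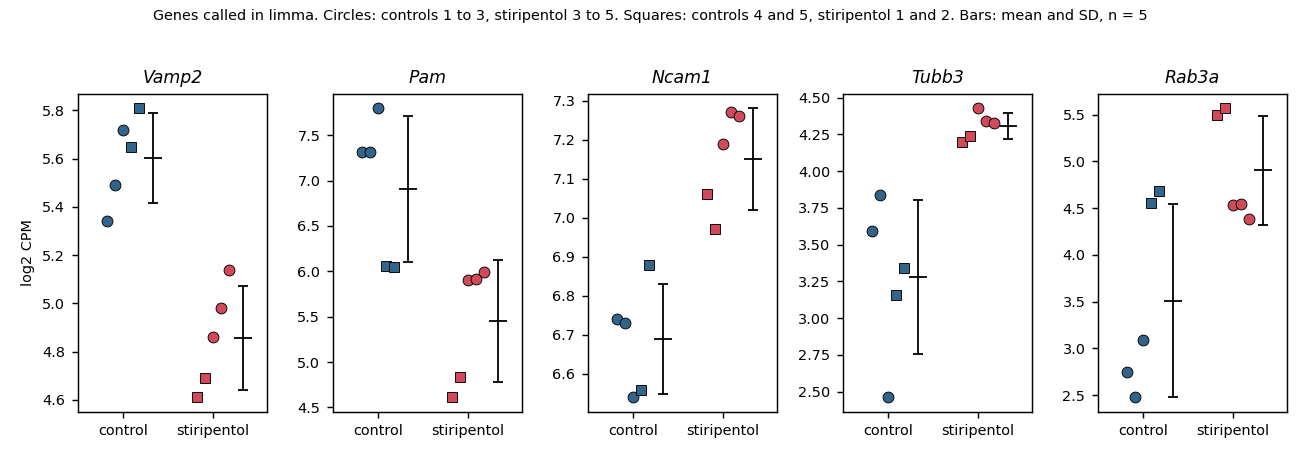
Log2 CPM (vertical axis, a separate range for each gene) of the 5 genes called in limma in control (blue) and stiripentol (red) libraries, each point 1 library and each bar the mean with its SD (n = 5). Circles are controls 1 to 3 and stiripentol 3 to 5, squares are controls 4 and 5 and stiripentol 1 and 2; the groups are apart for Vamp2, Pam, Ncam1 and Tubb3 and overlap for Rab3a, where control 5 at 4.68 exceeds stiripentol 5 at 4.38.

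Among the calcium sensors, Syt1, the fast sensor of synaptic vesicles, had at most 4 reads. Syt7, a slower sensor of high calcium affinity, was at 5.08 ± 0.34 log2 CPM in control and 4.95 ± 0.09 with stiripentol (SD, n = 5). Its change of -0.13 had an adjusted p of 0.563, with 0.28 and -0.41 in the pairs of clusters. Syt11, a synaptotagmin that does not bind calcium, was at 2.99, 3.21, 3.27, 3.01 and 3.05 log2 CPM in the controls and at 0.87, 0.62, 3.50, 3.45 and 3.43 with stiripentol. Stiripentol 1 and 2 were lowest and stiripentol 3 to 5 were highest, so the control libraries lay between them. The change of -0.73 (SE 0.59) had an adjusted p of 0.368.

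The priming factors ready docked vesicles for fusion. Cadps had at most 1 read in any library. Unc13a, which encodes Munc13-1, was at 2.63, 2.85, 3.03, 4.90 and 4.98 log2 CPM in the controls and at 3.06, 3.40, 3.33, 3.04 and 3.29 with stiripentol. Controls 4 and 5 stood above every other library, by a mean of 2.10 over controls 1 to 3, and stiripentol libraries lay close together. The change of -0.45 (SE 0.47) had an adjusted p of 0.482, and in the pairs of clusters it was -1.71 and 0.38. The span of Unc13a overlaps that of Colgalt1.

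Of the proteins of the vesicle surface, Syp, which encodes the diagnostic marker synaptophysin, had 2 to 20 reads in control and 6 to 15 with stiripentol. The synapsins, which tether vesicles to actin, were at 0.848 ± 0.278 CPM in control and 0.388 ± 0.271 with stiripentol for Syn1, and at 0.687 ± 0.624 and 1.27 ± 0.278 for Syn2 (SD, n = 5). Syn1 was lowest in stiripentol 1 and 2, with 3 and 8 reads, and Syn2 was lowest in controls 1 to 3, with 19, 5 and 23 reads. The span of Syn1 overlaps those of Araf and Timp1, and the span of Syn2 overlaps those of Timp4 and a pseudogene.

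The Rab3 GTPases sit on secretory vesicles and guide docking. Rab3a, at chr8:70754703-70758608, was at 2.75, 2.48, 3.09, 4.56 and 4.68 log2 CPM in controls 1 to 5 and at 5.50, 5.57, 4.53, 4.54 and 4.38 in stiripentol 1 to 5. Controls 1 to 3 were lowest and stiripentol 1 and 2 highest, and controls 4 and 5 overlapped stiripentol 3 to 5. Rab3a rose by 1.39 on the log2 scale (SE 0.47, adjusted p = 0.0479), a ratio of 2.63. The changes were 0.92 and 1.71 in the pairs of clusters and -0.14 between controls 4 and 5 and stiripentol 3 to 5. The call was kept in 3 of the 10 fits that left out 1 library, those without control 4, control 5 or stiripentol 5, and in the other 7 the adjusted p was 0.059 to 0.109.

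The other Rab3 genes followed other patterns. Rab3d was at 4.40, 4.60, 4.76, 5.97 and 5.94 log2 CPM in the controls and at 4.67 to 5.01 with stiripentol, with controls 4 and 5 above all others and an adjusted p of 0.413 for a change of -0.35. Rab3b had 10, 11, 17, 67 and 19 reads in the controls and 41, 43, 126, 128 and 116 with stiripentol. In CPM, stiripentol 3 to 5 were highest at 2.11 to 2.18, and stiripentol 1 and 2 lay below controls 4 and 5. Rab3c had at most 1 read and the Rab3 effector Rph3a at most 3.

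Among the remaining markers of neuroendocrine tumors, Ncam1 (chr9:49502129-49799393), the adhesion molecule also called CD56, was at 6.74, 6.73, 6.54, 6.56 and 6.88 log2 CPM in controls 1 to 5 and at 7.06, 6.97, 7.19, 7.27 and 7.26 in stiripentol 1 to 5. Every stiripentol library was above every control library. Ncam1 rose by 0.46 (SE 0.10, adjusted p = 0.00911), a ratio of 1.38, with 0.30 and 0.57 in the pairs of clusters. The call was kept in each of the 10 fits that left out 1 library, and was lost when controls 4 and 5 alone were set against all stiripentol libraries (adjusted p = 0.061). Uchl1, the neuronal ubiquitin hydrolase PGP9.5, was at 0.07, 0.43, -0.85, 1.48 and 1.42 log2 CPM in the controls and at -0.36, -0.12, 1.37, 1.23 and 1.53 with stiripentol. Its libraries split by cluster and not by treatment, and the change of 0.22 had an adjusted p of 0.779. The spans of Ncam1 and Uchl1 each overlap that of an annotated long noncoding RNA.

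Of the 5 neuronal cytoskeleton and outgrowth genes with a row, 2 were tested and 1 was called. Tubb3 (chr8:123411553-123422015), which encodes the class III beta-tubulin used as a neuronal marker, was at 3.59, 3.84, 2.46, 3.16 and 3.34 log2 CPM in controls 1 to 5 and at 4.20, 4.24, 4.43, 4.34 and 4.33 in stiripentol 1 to 5. The stiripentol libraries lay close together above all controls, and control 3 was lowest. Tubb3 rose by 1.03 (SE 0.24, adjusted p = 0.01), a ratio of 2.05, with 0.97 and 1.07 in the pairs of clusters, and it was called in each of the 10 fits that left out 1 library. The call was lost between controls 1 to 3 and stiripentol 1 and 2 (adjusted p = 0.05, rounded).

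Stmn2 (chr3:8509527-8561604), a microtubule regulator of growing axons, was at 5.14, 4.91, 5.09, 5.78 and 5.77 log2 CPM in controls 1 to 5 and at 5.22, 5.07, 4.59, 4.46 and 4.62 in stiripentol 1 to 5. Stiripentol 1 and 2 lay within the range of controls 1 to 3 or just above it, so the groups overlapped. The change of -0.55 (SE 0.22, adjusted p = 0.0882) was not called over all libraries, although it was called in both pairs of clusters alone, at -0.63 and -0.49. It was also called with a term for the cluster pair (adjusted p = 0.000519), in a fit that called 3336 of all genes lower. Controls 4 and 5 exceeded controls 1 to 3 by 0.73 on average, so that the change between controls 1 to 3 and stiripentol 1 and 2 was 0.10.

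Further cytoskeleton and outgrowth genes were below the filter. Dpysl5, a collapsin response mediator of growth cones, had 168, 123, 67, 45 and 23 reads in the controls and 10, 10, 32, 48 and 40 with stiripentol. Stiripentol 1 and 2 were lowest, and in CPM stiripentol 4 and 5 exceeded control 4, so the groups overlapped. Gap43, a membrane protein of growth cones, had 62, 30, 17, 0 and 0 reads in the controls and 0, 3, 14, 24 and 22 with stiripentol, and was thus at or near 0 in controls 4 and 5 and stiripentol 1 and 2. Stmn3 had at most 1 read. Among the RNA-binding proteins of neurons, Elavl3 and Elavl4 had at most 2 and 5 reads and Celf3 at most 14.

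**Figure D4:**
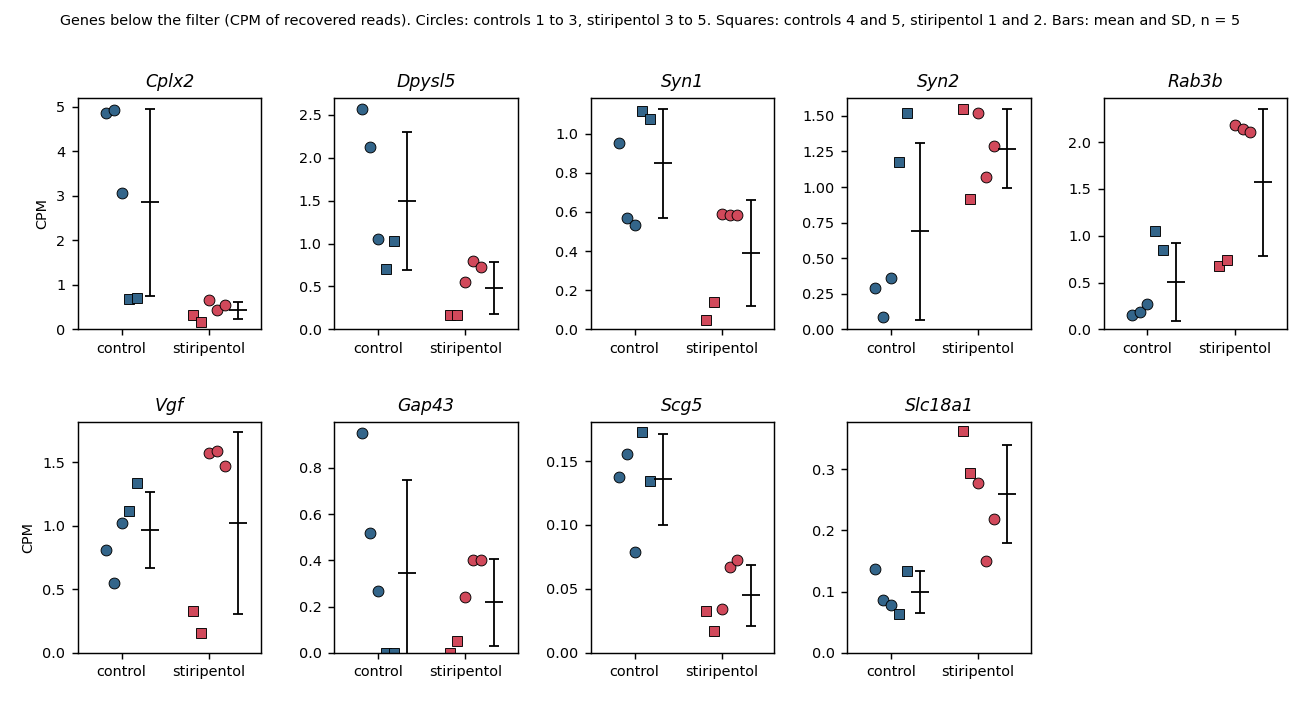
CPM of recovered reads (vertical axis, from 0, a separate range for each gene) of 9 genes below the filter in control (blue) and stiripentol (red) libraries, each point 1 library and each bar the mean with its SD (n = 5). Circles are controls 1 to 3 and stiripentol 3 to 5, squares the other libraries; the groups are apart for Scg5, Slc18a1 and, narrowly, Cplx2.

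Of the 28 genes below the filter, a fit without the filter called 2 lower and 1 higher, where 6.63% of all 26335 rows were called lower and 6.47% higher. These were Cplx2 (log2 change -2.30, adjusted p = 0.0458), Scg5 (-1.08, adjusted p = 0.0273) and Slc18a1 (1.12, adjusted p = 0.0385). They were also the 2 genes of the 28 with every stiripentol library below every control library in CPM, as in 8.27% of all rows, and the 1 with every stiripentol library above, as in 7.13%. All these shares include rows above the filter, where groups that did not overlap were more frequent (14.3% and 13.0%). Among rows below the filter alone such groups are thus less frequent than the shares over all rows. The shares for those rows alone were not counted. Because controls 1 to 3 were deposited with another value at 0 reads, the fit was repeated with 0.1 CPM added in every library. Scg5 (-0.70, adjusted p = 0.0145) and Slc18a1 (0.84, adjusted p = 0.0205) remained called, and Cplx2 (-2.15, adjusted p = 0.0557) did not. With at most 11 reads of Scg5 and 22 of Slc18a1 in a library, these differences rest on few reads.

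Other genes of the same machinery, from lists drawn up by role, are given beside the 14.1% of all genes tested that were called lower and the 13.6% called higher. Of 33 tested genes of regulated exocytosis that were not in the list above, 1 was called lower and 2 higher, and the median log2 change was 0.11. The one that fell was the endosomal SNARE Vamp4 (-0.52, adjusted p = 0.00962), and those that rose were Napa (0.40, adjusted p = 0.0367) and Napb (1.73, adjusted p = 0.000235), which encode adaptors for taking SNARE complexes apart. Of 6 further tested genes of prohormones and their processing, 1 was called, the convertase Furin of the constitutive pathway, which fell by 0.99 (adjusted p = 0.00199). Of 7 tested genes of transmitter synthesis and breakdown, 0 were called. Of 14 further tested genes of the neuronal cytoskeleton and RNA binding, 1 was called, the microtubule-associated kinase Dclk1, which fell by 1.45 (adjusted p = 0.000115).

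The complex that represses neuronal genes was tested in full, with 4 of 11 genes called lower and 1 higher, against 14.1% and 13.6% of all genes tested, and a median log2 change of -0.27. Rest fell by 0.51 (SE 0.17, adjusted p = 0.0426). The deacetylase Hdac1 fell by 0.92 (adjusted p = 0.0024), the phosphatases Ctdsp1 and Ctdsp2 fell by 1.29 (adjusted p = 0.0141) and 0.52 (adjusted p = 0.0041), and the methyltransferase Ehmt2 rose by 0.44 (adjusted p = 0.0134). Over the same comparison, markers of other cell types also moved. Of 7 tested mesenchymal markers 3 were called lower, of 4 epithelial markers 2 were called lower, and the 1 tested airway marker, Foxj1, fell by 2.02 (adjusted p = 0.00408). The summed level of the 8 mesenchymal markers was 7860 to 10400 CPM in control and 7540 to 13800 CPM with stiripentol, that of the 6 epithelial markers 2580 to 3250 and 1950 to 2460 CPM. The 5 leukocyte markers with a row summed to 6.43 to 18.6 CPM in control and 58.8 to 103 CPM with stiripentol, and 1 of the 2 tested was called, Cd68, which also marks lysosomes and rose by 3.21 (adjusted p = 0.000819), while Ptprc stayed at 0 to 3 reads. The endothelial markers summed to at most 1.20 CPM. The part of these markers in the changes of the neuroendocrine genes was not tested.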

How the data were processed

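RNA from 5 control and 5 stiripentol libraries of mSCLC-2405 cells was analysed. The deposited values are log2 CPM of each gene, which the authors made with GENAVi per their methods, adding a small prior before the logarithm. The deposited table also holds group means, ratios of group means, p-values and q-values of the authors' own comparison, which were not used. The submitters' processing notes name mm10; the aligner is not given in the sources used here. The study's methods name a 3′ mRNA kit and the sample records a total RNA kit. Levels of different genes are therefore only shown side by side or summed over a list, and were not tested against each other.

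Whole reads were recovered from the values, and intervals from reads cover counting error only. Of the values with low and moderate read numbers, 100% lay within 0.1 read of a whole number, and values with higher read numbers were not checked. Stiripentol was tested against control with limma 3.58.1 in R 4.3.3 (lmFit, eBayes with trend) on the log2 CPM as deposited, over the 12306 genes with mean log2 CPM above 0, with Benjamini-Hochberg adjustment and calls at an adjusted p under 0.05. The script was tested on simulated data. Replicates of a cluster differed by more than read counting gives (chi-square per gene at least 6.75), so none was counted as a copy.

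The members and gene lists were chosen with earlier results of these data known. Values in every library are given for genes called over all libraries or in both pairs of clusters, by rule, and for other genes chosen after their values were seen. The alternatives tried were a replicate block, a term for the cluster, each pair of clusters by itself, the fit without each library in turn, quantile and median scaling, filters above, below and per group, voom weights for the recovered reads, a pseudocount of 1 or 0.1 CPM, and calls only at an absolute log2 change of 1 or more. Contrasts crossing the cluster pairs, controls 4 and 5 against all stiripentol libraries, 1 mean per cluster, the block in the study's numbers and the unfiltered fit with 0.1 CPM were added after the values were seen. Promoters, gene spans and neighbours came from RefSeq (GRCm38.p6). The result of 1 gene of the marker lists is not reported here.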

Additional observations from a re-analysis of the deposited data

Results flagged for a closer look

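Values far from the rest of their group were looked for in 32 groups of 5 values, and 3 were found, where chance gives about 1.6 (1 in 20). Slc18a2 was at 1.75 log2 CPM in control 4, below the next control at 2.23. Syt7 was at 5.10 log2 CPM in stiripentol 2, above the next stiripentol library at 4.91. Control 5 had 22375625 reads, the next lowest control 57991647.

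In 5 genes every library moved one way in the pair of controls 4 and 5 with stiripentol 1 and 2 and the opposite way in the pair of controls 1 to 3 with stiripentol 3 to 5. The log2 changes in the first and the second pair were -0.73 and 1.11 for Ptprn, 0.28 and -0.41 for Syt7, and -2.28 and 0.30 for Syt11. They were -1.71 and 0.38 for Unc13a and -1.69 and 1.50 for Uchl1. These differences between pairs were not tested.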

How the results depend on the processing

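Under quantile normalization, median centring, a filter at 2, both pseudocounts and limma voom, the counts of genes called stayed at 2 lower and 3 higher or within 1.5 times of these. Leaving out 1 library gave 1 to 2 lower and 2 to 3 higher (all genes 1171 to 1802 and 1218 to 1706). Vamp2 stayed called in each such fit, and Pam and Rab3a did not. Counts of genes lower, with all genes lower and higher, were 5 (3336, 2908) with a cluster term, which added Stx1a, Slc18a2 and Stmn2, 9 (5726, 3158) for controls 4 and 5 against stiripentol 1 and 2, and 5 (3322, 4637) for controls 1 to 3 against stiripentol 3 to 5, with 7 higher. They were 5 (5564, 3457) for controls 1 to 3 against stiripentol 1 and 2 and 5 (3880, 4610) for controls 4 and 5 against stiripentol 3 to 5. Controls 4 and 5 against all stiripentol libraries gave 4 lower and 1 higher (1215, 1249). The fit with no filter gave 4 lower (1747, 1705), and a minimum absolute log2 change of 1 gave 1 (890, 404). The filter on genes above 0 in a group gave 4 lower and 4 higher (1909, 1756). Genes can pass that filter through only the group where they are higher, which favors calls, so its further calls are no support. With 1 mean per cluster, limma called 0 genes lower and 0 higher, and 1116 of all genes and 1 of the 15 had an unadjusted p under 0.05; that fit has 4 values.

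The replicate block in the numbers of the records gave 1 lower (1062, 1020). Libraries that share a number there deviated with a correlation of -0.152 on average, and 0 of 5 controls were closest to their own number. In the numbers of the study's list, the correlation was 0.084 to 0.224, over 0.1 in 4 of 5 pairs, and 2 of 5 controls were closest to their own number; this block, added after the values were seen, gave 3 lower, with Stmn2, and 3 higher (2199, 2050). Neither numbering was taken to pair single libraries in the main fit, although that of the study's list was used to form the pairs of clusters.

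Changes of the opposite sign where either fit made a call were -0.73 for Ptprn and -1.69 for Uchl1 (controls 4 and 5 against stiripentol 1 and 2), 0.30 for Syt11 and 0.38 for Unc13a (controls 1 to 3 against stiripentol 3 to 5), and 0.19 for Syt7, 0.43 for Syt11 and -0.14 for Rab3a (controls 4 and 5 against stiripentol 3 to 5). A further 14 values of 8 genes had the opposite sign with a call in neither fit, mostly in contrasts of clusters. The median change of all genes moved from -0.06 to 0.03 under median centring and 0.05 under quantile normalization. The causes were not tested. Genes at a few reads are limited by depth.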
